A study of Solenopsis japonica with 2 samples.

Results

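Fatty acid synthases and fatty acyl-CoA reductases of the fire ant Solenopsis japonica made up 32 of the 4487 contigs in the deposited table that compares cold-held with control workers. Fatty acid synthase is a large enzyme that carries the steps of fatty acid synthesis as domains of a single chain and joins 2-carbon units taken from malonyl-CoA into saturated fatty acids. Fatty acyl-CoA reductases turn activated fatty acids into fatty alcohols, which are used in waxes, ether lipids and pheromones. In insects, fat body cells make fatty acids for storage, and oenocytes, cells beneath the cuticle, make those that become the wax and hydrocarbons of the body surface. Ants carry several gene copies of both families.

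The members were the contigs whose best match in the protein database NR or the nucleotide database NT was described as a fatty acid synthase or a fatty acyl-CoA reductase, without regard to case. There were 23 contigs of fatty acid synthases and 9 of fatty acyl-CoA reductases. Contigs were grouped by the LOC number, the gene identifier of the NT match, which gave 17 fatty acid synthase genes and 6 reductase genes. A single contig, c84000_g1_i1, had no NT match and was kept as a gene of its own. Both descriptions named the family for 23 of the 32 contigs, the NT description alone for 8 and the NR description alone for 1.

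Both libraries were made from whole bodies of adult wild type workers of medium size from colonies fed sucrose, mealworms and an artificial diet at 25 °C. One group of workers was then held at 9 °C (T9) and the control group at 25 °C (T25) for 24 h. Workers were pooled, and each temperature is represented by 1 library, so the variation from pool to pool is unknown and no test of temperature was made. In whole bodies, more cells of a type and more RNA per cell cannot be told apart.

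Counts were scaled to library sizes recovered from the authors' normalised log2 values (53237356 in T9, 49264352 in T25), and the fold of a contig or gene is the ratio of the scaled counts. The interval in parentheses after a fold is the exact 95% Clopper-Pearson interval. It covers counting error only. Levels are given in CPM, the count relative to these library sizes, or in FPKM, the authors' fragment number corrected for contig length and depth, which is the scale on which contigs of different length can be set side by side. The table holds only contigs that passed a filter of the authors on the difference between the libraries. It is longer than the paper's lists of differentially expressed unigenes, which lack members such as c90211_g3_i6 and c90634_g2_i1. The smallest fold in the table was 2.35 on the higher side and 2.36 on the lower side. Each member therefore had to lie on one side or the other, and unchanged members of the families were not analysed here.

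Of the 32 member contigs, 32 were higher in the T9 library, against 54.7% of all contigs of the table, and of the 23 genes 23 were higher. With the libraries scaled by the median ratio of the table instead, c90634_g2_i1 turned to 0.893 of its T25 level and the folds of the other members stayed above 1, with c83419_g2_i3 at 1.05. On that other scale the summed fold was 1.74 for the synthases and 3.004 for the reductases, so the size of the folds below depends on the scaling. The members as a whole had 188110 counts in T9 and 36044 in T25, or 3533 against 732 CPM.

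The share of large folds was higher among the members than among all contigs higher in T9. At least 4-fold higher were 26 of the 32 members (81.2%), against 36.9% of all contigs of the table and 67.5% of the contigs higher in T9. At least 8-fold higher were 13 members (40.6%), against 15.2% and 27.8%. The median log2 ratio, taken after adding 1 scaled count, was 2.28 over the members, 2.15 for the contigs on the higher side and 1.45 for the whole table. Without the added count the order of the first pair turned. The median fold was then 5.05 over the members, 5.32 for the contigs on the higher side and 2.74 for the whole table. Where both libraries together gave 100 counts or more, 23 of 23 members were higher in T9 (64.2% of such contigs of the table), and 17 of them were at least 4-fold higher (73.9%, against 28.5% of such contigs of the table and 44.4% of those higher in T9). At least 8-fold higher were 9 of these 23 (39.1%, against 11.3% and 17.7%), and their median log2 ratio was 2.25, against 1.85 for such contigs higher in T9. These are descriptions of a pair of libraries, with no test.

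**Figure D1:**
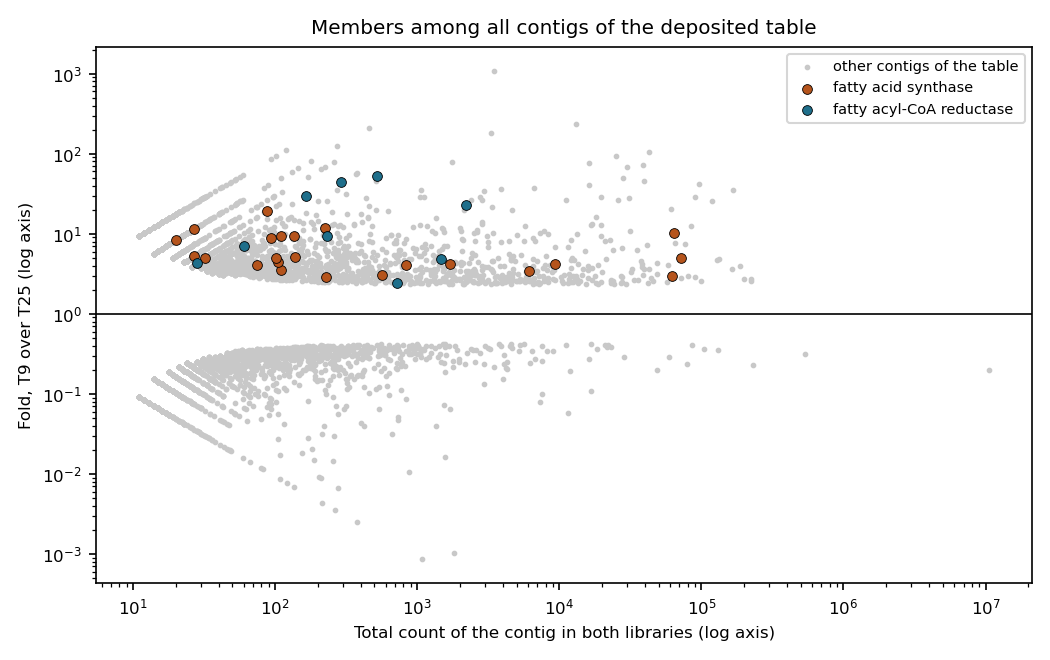
Fold of T9 over T25 (vertical log axis) against the total count in both libraries (horizontal log axis), 1 point per contig of the deposited table, with fatty acid synthases in orange and fatty acyl-CoA reductases in blue. The 32 members lie above the line at 1, between 2.45-fold and 52.2-fold; with the median ratio of the table as scale, c90634_g2_i1 falls to 0.893.

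Fatty acid synthases had 182997 counts in T9 and 35470 in T25 over their 23 contigs, and the sum was 4.77-fold (4.72 to 4.83) higher in T9. Single contigs lay between 2.89-fold and 19.2-fold, with a median of 4.97-fold. Counts in T9 ran from 18 to 60617 with a median of 116, and in T25 from 2 to 14952 with a median of 18. A few contigs thus carry most of the reads of the family.

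Contigs of 3 genes, c90821_g8_i3, c21111_g1_i1 and c90211_g3_i6, held 91.1% of the family's counts in T9 and 89.3% in T25. They were also the longest members. From counts per FPKM, the effective length of c90211_g3_i6 was 78.3% and that of c21111_g1_i1 72.2% of that of c90821_g8_i3, while the next longest synthase contig, c90211_g5_i1, reached 15.1%. Summed over the 20 shorter contigs, the family had 16237 counts in T9 and 3782 in T25, 3.97-fold (3.83 to 4.12) higher in T9.

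The contig c90821_g8_i3, matched to LOC105208165 of Solenopsis invicta, had 60617 counts in T9 and 11385 in T25, or 1139 against 231 CPM and 117 against 21.7 FPKM. Its fold was 4.93 (4.83 to 5.03). The contig c21111_g1_i1, matched to LOC105839757 of Monomorium pharaonis, had 58760 counts in T9 and 5351 in T25, or 157 against 14.1 FPKM. Of the long synthase contigs it differed most between the libraries, 10.2-fold (9.88 to 10.5). The contig c90211_g3_i6, matched to LOC105202956, had 47383 counts in T9 and 14952 in T25, or 117 against 36.3 FPKM, and differed least, 2.93-fold (2.88 to 2.99). The intervals of these folds do not overlap, so the difference between the genes is larger than counting error.

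**Figure D2:**
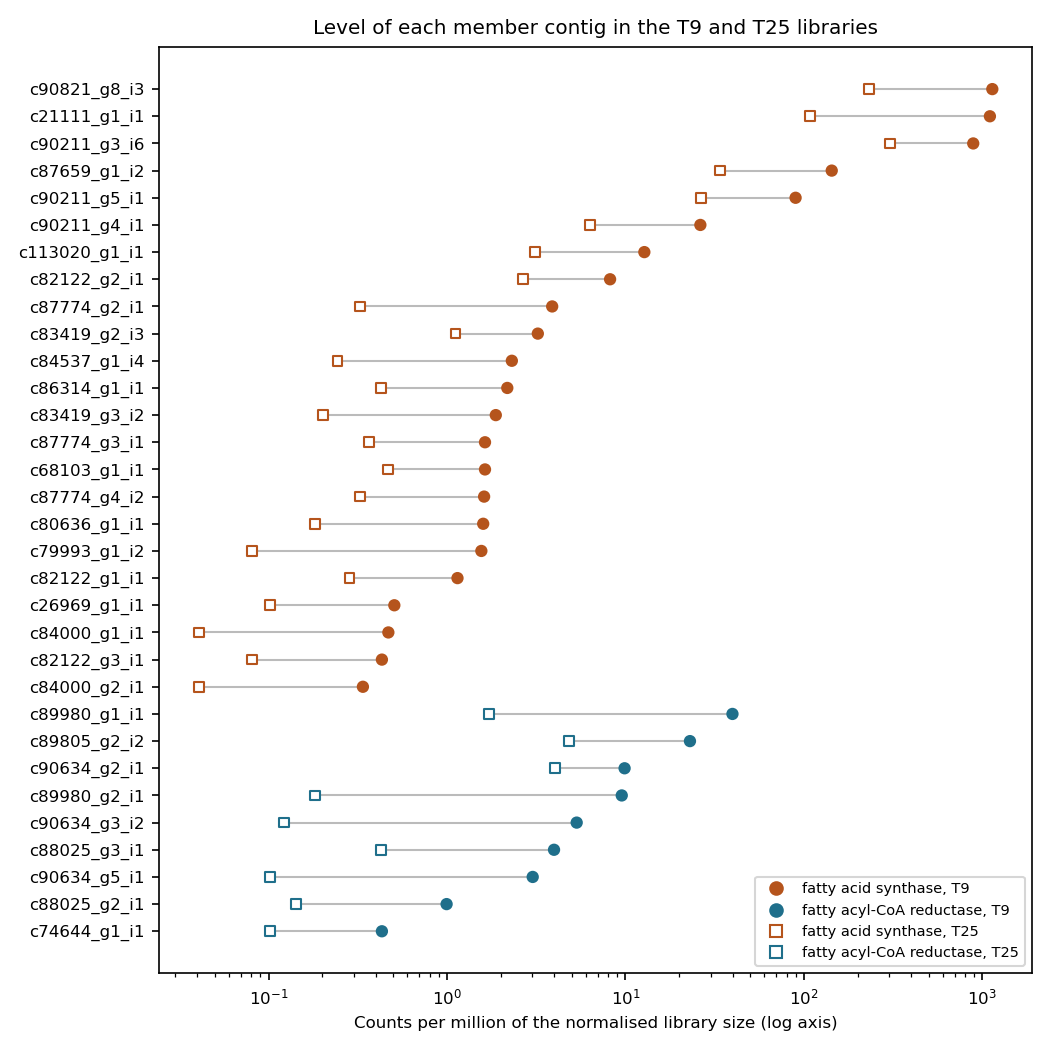
Level of each of the 32 member contigs in the T25 library (open squares) and the T9 library (filled circles), in CPM on a log axis, with fatty acid synthases in orange and fatty acyl-CoA reductases in blue. For 32 of 32 contigs the filled circle lies to the right; with the median ratio of the table as scale, c90634_g2_i1 falls to 0.893 of its T25 level.

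The order of the 3 large synthase genes turned between the libraries. LOC105202956 held 42.2% of the family's counts in T25 (exact binomial 95% interval 41.6% to 42.7%) and 25.9% in T9 (25.7% to 26.1%). LOC105839757 held 15.1% in T25 (14.7% to 15.5%) and 32.1% in T9 (31.9% to 32.3%). The share of LOC105208165 was 37.2% (36.7% to 37.7%) in T25 and 37.6% (37.4% to 37.8%) in T9, a difference within counting error. The same turn is seen per length, since c90211_g3_i6 was above c21111_g1_i1 in T25 FPKM and below it in T9. Without LOC105839757, a choice made after its values were seen, the family's sum was 3.82-fold (3.77 to 3.87) higher in T9.

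**Figure D3:**
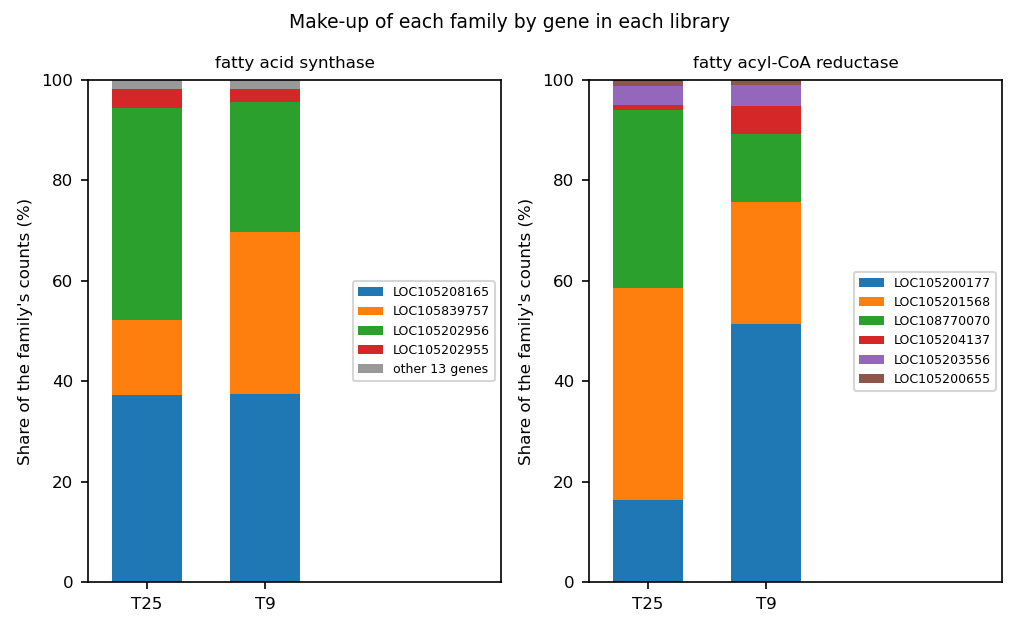
Share of each family's counts (%) by gene in the T25 and T9 libraries, fatty acid synthases on the left and fatty acyl-CoA reductases on the right, with the 13 smaller synthase genes in grey. LOC105839757 goes from 15.1% to 32.1% of the synthase counts and LOC105200177 from 16.4% to 51.4% of the reductase counts.

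Synthase genes of medium level lay within a narrow band. The Trinity component c90211, a cluster of related contigs in the assembly, holds c90211_g3_i6 and a pair of further contigs that were matched to other genes. Of these, c90211_g5_i1 (LOC105202955) had 4787 counts in T9 and 1310 in T25, 3.38-fold (3.18 to 3.60). The other, c90211_g4_i1 (LOC105203326), had 1401 counts in T9 and 311 in T25, 4.17-fold (3.68 to 4.73) higher. Per length c90211_g4_i1 was among the more abundant members, with 132 FPKM in T9 and 28.9 in T25. The 3 contigs of LOC105202319 summed to 879 counts in T9 and 214 in T25, 3.80-fold (3.27 to 4.43) higher, and the largest of them, c113020_g1_i1, had 680 counts in T9 and 154 in T25 and was 4.09-fold (3.43 to 4.90) higher. The short contigs c83419_g2_i3, with 172 counts in T9 and 55 in T25, and c26969_g1_i1, with 27 in T9 and 5 in T25, made up the rest of that gene.

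Several rare synthase genes had larger folds with wide intervals. LOC105198161 (c79993_g1_i2) had 83 counts in T9 and 4 in T25, and its fold of 19.2 (7.22 to 72.1) was the largest among the synthases. LOC108748804 of Trachymyrmex septentrionalis (c87774_g2_i1) had 207 counts in T9 and 16 in T25, a fold of 12.0 (7.20 to 21.3). For LOC105198903 (c84537_g1_i4) the counts were 123 in T9 and 12 in T25, 9.49-fold (5.24 to 18.9). Per length these contigs stayed far below the 3 long ones, at 0.18 to 1.30 FPKM in T25 and 1.91 to 17.0 FPKM in T9, and the NR match of c84537_g1_i4 was an uncharacterized protein. LOC105196297 (c83419_g3_i2) had 100 counts in T9 and 10 in T25, 9.25-fold (4.83 to 19.9), and LOC105202560 (c80636_g1_i1) had 85 in T9 and 9 in T25, 8.74-fold (4.39 to 19.8). The intervals of these 5 genes lie above that of LOC105202956 and include the fold of LOC105839757.

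Other rare synthase genes lay near the middle of the family. LOC105207216 (c86314_g1_i1) had 116 counts in T9 and 21 in T25, 5.11-fold (3.19 to 8.57) higher in T9. LOC105202184 (c87774_g3_i1) had 87 in T9 and 18 in T25, 4.47-fold (2.67 to 7.90), and LOC105201607 (c68103_g1_i1) had 87 in T9 and 23 in T25, 3.50-fold (2.19 to 5.81). LOC105205072 was made of c82122_g1_i1, with 61 counts in T9 and 14 in T25, and c82122_g3_i1, with 23 in T9 and 4 in T25, and their sum was 4.32-fold (2.57 to 7.64) higher. The intervals of these 4 genes overlap each other. The contigs of component c84000 had 2 counts each in T25, and their folds of 11.6 (2.88 to 101) for c84000_g1_i1, with 25 counts in T9, and 8.33 (1.99 to 74.0) for c84000_g2_i1 (LOC108750250), with 18 counts in T9, have intervals too wide to be set against the other genes.

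The synthase contigs were sorted by the first Pfam domain listed for each, and a contig can hold further domains. This was the acyl transferase domain, which loads the building blocks, in 6 contigs, among them the 3 long ones, with folds from 2.93 to 12.0. The N-terminal part of the ketoacyl synthase, which joins the chain to the next unit, was the first listed domain of 5 contigs (3.38-fold to 11.6-fold). The thioesterase, which releases the finished fatty acid, was the first listed domain of 3 contigs (4.24-fold to 19.2-fold). Ketoreductase and dehydratase domains, which act on the growing chain, had 2 contigs each, at 4.09-fold and 4.997-fold and at 4.03-fold and 5.32-fold. An alcohol dehydrogenase-like domain, which belongs to the enoyl reductase step, was the match of c82122_g2_i1 (3.06-fold), and the acyl carrier domain, which holds the chain, that of c68103_g1_i1 (3.50-fold). The C-terminal part of the ketoacyl synthase and its associated region were the first listed domain of 1 contig each, at 8.33-fold and 2.89-fold, and 1 contig had no domain.

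By their best gene ontology match, 9 synthase contigs, with 171925 counts in T9 and 33048 in T25, were closest to FASN3 of Drosophila melanogaster. In the fruit fly FASN3 and FASN2 act in oenocytes, and FASN1 is the synthase of the fat body. The contigs matched to FASN3 summed to 4.81-fold (4.76 to 4.87) higher in T9. The 3 contigs matched to FASN1 had 320 counts in T9 and 87 in T25, 3.40-fold (2.68 to 4.37), and the 2 matched to FASN2 had 464 in T9 and 137 in T25, 3.13-fold (2.58 to 3.82). The sum of the FASN3 group lies above both by more than counting error, but it rests on the 3 long contigs, of which c90211_g3_i6 was at 2.93-fold. A match of this kind names the most similar described gene and not the tissue in which the ant gene acts.

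Fatty acyl-CoA reductases had 5113 counts in T9 and 574 in T25 over 9 contigs, 96.0 against 11.7 CPM, and the sum was 8.24-fold (7.56 to 9.00) higher in T9. At least 4-fold higher were 8 of the 9 contigs (88.9%), against 36.9% of all contigs of the table and 67.5% of those higher in T9. At least 8-fold higher were 5 of 9 (55.6%), against 15.2% and 27.8%. Their folds ran from 2.45 to 52.2, a wider range than that of the synthases, and their FPKM values ran from 4.43 to 41.0 in T9 and from 0.15 to 5.63 in T25. No reductase contig reached the FPKM of the 3 long synthase contigs in either library.

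LOC105200177, described as fatty acyl-CoA reductase 1, had the most counts of the reductase genes in T9. Its contigs c89980_g1_i1 and c89980_g2_i1 summed to 2628 counts in T9 and 94 in T25, 25.9-fold (21.1 to 32.1) higher in T9. The former had 41.0 FPKM in T9 and 1.62 in T25, and the latter 22.2 FPKM in T9 and 0.39 in T25. This gene held 51.4% of the family's counts in T9 (50.02% to 52.8%) and 16.4% in T25 (13.4% to 19.7%). Without it, a choice made after its values were seen, the other reductases had 2485 counts in T9 and 480 in T25 and were 4.79-fold (4.34 to 5.29) higher, an interval that includes the 4.77-fold of the synthases.

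LOC105204137 (c90634_g3_i2), matched to a partial mRNA of fatty acyl-CoA reductase 1-like, had 284 counts in T9 and 6 in T25, a fold of 43.8 (19.9 to 120). Per length it was at 7.18 FPKM in T9 and 0.15 in T25. Its component also holds the contigs of LOC108770070, described below, and it may not be a separate gene. LOC105201568, also named fatty acyl-CoA reductase 1-like, had 1248 counts in T9 and 242 in T25 over its contigs c89805_g2_i2 and c74644_g1_i1, and was 4.77-fold (4.16 to 5.50) higher. It had the most counts of the reductase genes in T25, with 42.2% of the family's counts (38.1% to 46.3%), and held 24.4% in T9 (23.2% to 25.6%).

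A pair of genes was matched to the putative fatty acyl-CoA reductase CG5065, named after a gene of Drosophila melanogaster. Their contigs are both of component c88025, and the KEGG database gave both the same gene, LOC105200655. They may therefore be pieces of 1 gene. The NR match of c88025_g2_i1 was named fatty acyl-CoA reductase 1-like. LOC105203556 (c88025_g3_i1) had 212 counts in T9 and 21 in T25, 9.34-fold (5.96 to 15.4) higher in T9. LOC105200655 (c88025_g2_i1) had 53 counts in T9 and 7 in T25, 7.01-fold (3.17 to 18.3) higher. Each fold lies within the interval of the other, so no difference beyond counting error is seen.

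Contigs assigned to 1 gene did not always carry the same fold. LOC108770070 of Trachymyrmex cornetzi joined c90634_g2_i1, with 527 counts in T9 and 199 in T25 at 2.45-fold (2.08 to 2.90), and c90634_g5_i1, with 161 in T9 and 5 in T25 at 29.8-fold (12.5 to 93.0). Their folds differ 12.2 times, and the best matches of these contigs in the EggNOG and NR databases were different proteins. The gene's sum, 3.12-fold (2.67 to 3.67), follows c90634_g2_i1, which has most of the counts, and does not describe c90634_g5_i1. As a ratio of summed FPKM, in which the shorter contig weighs more, it was 5.06. In KEGG, c90634_g2_i1 and c90634_g5_i1 had the same best match, shared with c90634_g3_i2 (LOC105204137) of their component. These contigs may therefore be pieces of 1 gene, and the sum of component c90634 was 4.28-fold (3.69 to 4.996) higher in T9. The contigs of LOC105200177 differed as well, at 23.1-fold (18.6 to 29.02) for c89980_g1_i1 and 52.2-fold (27.3 to 115) for c89980_g2_i1. These intervals overlap only at their ends, which does not show that the folds are equal.

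Among the synthases, LOC105208165 joined 4 contigs. Besides c90821_g8_i3, c87659_g1_i2 had 7632 counts in T9 and 1664 in T25, 4.24-fold (4.02 to 4.48). Its NR match was an uncharacterized protein, and with 219 FPKM in T9 and 47.2 in T25 it had the highest level per length of the members in both libraries. The contig c82122_g2_i1 had 437 counts in T9 and 132 in T25, 3.06-fold (2.52 to 3.75), and c87774_g4_i2 had 86 in T9 and 16 in T25, 4.97-fold (2.90 to 9.09). The interval of c82122_g2_i1 lies below those of c87659_g1_i2 and c90821_g8_i3, so these pieces do not share 1 fold within counting error. KEGG gave c82122_g2_i1 to LOC105205072, the NT gene of the other contigs of its component, so it may belong to that gene. With the 4 contigs summed, LOC105208165 had a fold of 4.82 (4.73 to 4.91). Of the 6 genes with several contigs, the ratio of the largest to the smallest contig fold was 1.12 for LOC105201568, 1.32 for LOC105205072, 1.62 for LOC105208165, 1.73 for LOC105202319, 2.26 for LOC105200177 and 12.2 for LOC108770070.

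The assignment of contigs to genes was itself uncertain. Of 21 member contigs whose best matches in NT and in KEGG were both genes of Solenopsis invicta, 12 were given the same gene by both databases and 9 different ones, 8 of these among 16 synthase contigs and 1 among 5 reductase contigs. Reads from near-identical copies can be split between contigs by the counting, so folds of single genes are less certain than those of the families. The family itself was named likewise by KEGG for 21 of 23 synthase contigs and 8 of 9 reductase contigs.

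**Figure D4:**
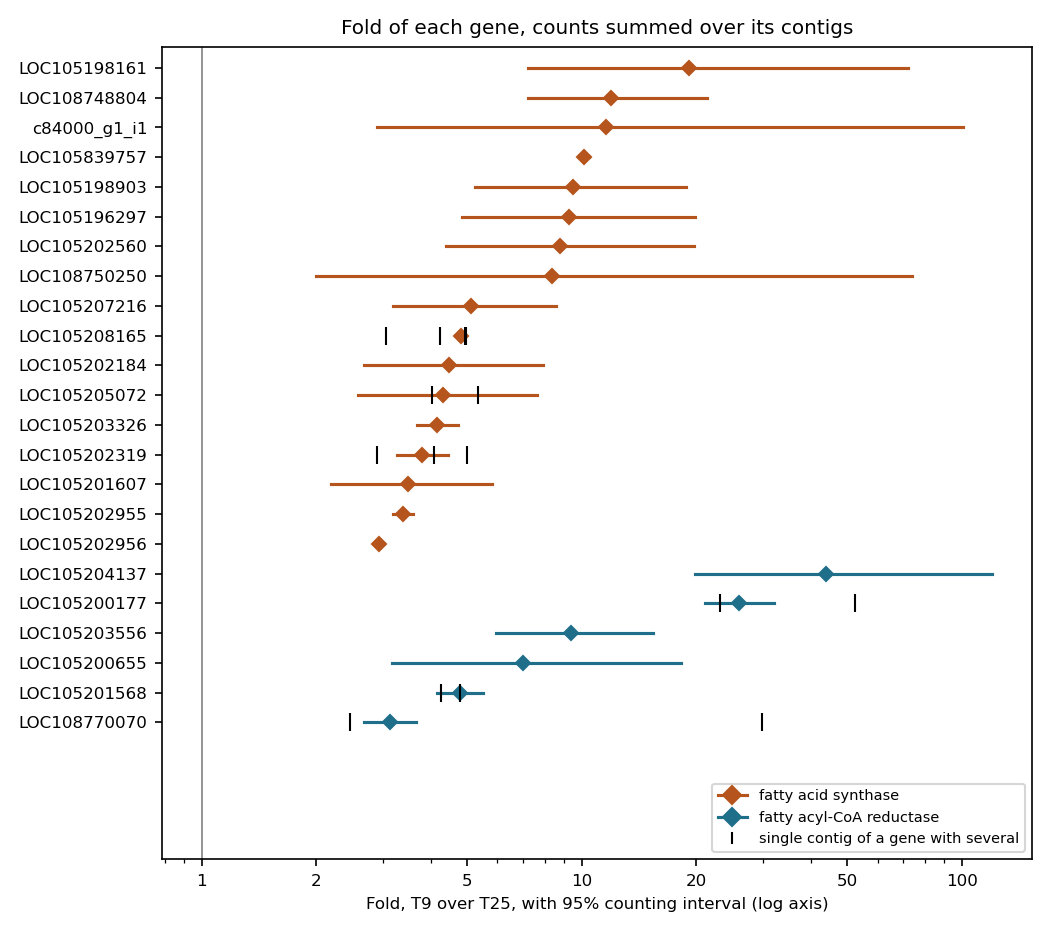
Fold of T9 over T25 for each of the 23 genes (diamonds, log axis) with its exact 95% counting interval (lines), counts summed over the contigs of a gene, and single contigs of genes with several shown as black ticks. The 23 genes lie to the right of 1, and the ticks of LOC108770070 stand at 2.45 and 29.8; with the median ratio of the table as scale, its contig at 2.45 falls to 0.893.

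Both domains of the reductases were represented. The NAD-binding catalytic domain was the first listed Pfam match of 5 contigs, with folds from 2.45 to 52.2, and the C-terminal domain of male sterility proteins that of 2 contigs, at 9.34-fold and 43.8-fold. In the gene ontology field, 7 of the 9 reductase contigs carried terms for the peroxisome and for wax biosynthesis, through matches to Anopheles gambiae.

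The other lists of fat metabolism ran up to the hydrocarbon end step named further down and included a breakdown list of 1 contig. They had 28 contigs, chosen by the words of their descriptions, of which 26 were higher in T9 and 2 lower, beside 54.7% higher over the table. With the median ratio of the table as scale, 20 of the 28 were higher, beside 50% of all contigs of the table on that scale. The elongation list, enzymes that lengthen fatty acids, had 11 of 11 contigs higher in T9 (2.40-fold to 13.2-fold), and 7 of these (63.6%) were at least 4-fold higher. That share was above the 36.9% of all contigs of the table and below the 67.5% of the contigs higher in T9. Its largest contigs were c89329_g1_i2, with 6845 counts in T9 and 1185 in T25 at 5.35-fold (5.02 to 5.69), and the hydroxyacyl-CoA dehydratase c71935_g1_i1, with 4499 in T9 and 1625 in T25 at 2.56-fold (2.42 to 2.71).

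Desaturases, which place double bonds, were higher in 5 of 5 contigs (2.76-fold to 10.9-fold). The largest were c88751_g1_i2, with 29022 counts in T9 and 2453 in T25 at 10.9-fold (10.5 to 11.4), and c90393_g1_i2, with 6459 in T9 and 1487 in T25 at 4.02-fold (3.80 to 4.26). A pair of the desaturase contigs, c86697_g1_i1 and c71252_g1_i2, had another gene as their NT match. Enzymes that activate fatty acids with coenzyme A were higher in 4 of 4 contigs, led by c85548_g1_i3, a short-chain enzyme, with 41381 counts in T9 and 15482 in T25 at 2.47-fold (2.43 to 2.52), and by the very long-chain ligase bubblegum (c89525_g1_i1), with 13535 in T9 and 3352 in T25 at 3.74-fold (3.60 to 3.88). The sums of the elongation list, 4.04-fold (3.91 to 4.18), and of the activation list, 2.88-fold (2.83 to 2.92), were below the 4.77-fold of the synthases, and that of the desaturases, 6.50-fold (6.32 to 6.68), was above it.

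Of the 3 contigs of esterification, which builds storage fat and membrane lipids, glycerol-3-phosphate acyltransferase 1 (c87193_g3_i1) had 8405 counts in T9 and 3182 in T25, a fold of 2.44 (2.35 to 2.55). The 1-acyl-sn-glycerol-3-phosphate acyltransferase alpha c87556_g1_i3, which acts on the next step, had 52 in T9 and 168 in T25 and was lower in T9, by a factor of 3.49 (2.54 to 4.86). The list of precursor supply covered enzymes that supply malonyl-CoA and, for NADPH, malic enzyme alone. Other enzymes that supply NADPH were not searched for. The 1 contig of that list, an NADP-dependent malic enzyme (c79199_g1_i1), which makes NADPH, had 5 counts in T9 and 24 in T25, a factor of 5.19 (1.94 to 17.4) below its control level. The breakdown list had 1 contig, c87092_g1_i2, a short/branched chain acyl-CoA dehydrogenase known from amino acid breakdown, at 2.47-fold (2.26 to 2.71) higher, and the regulator list, sterol regulatory element-binding protein, had 0 contigs. Contigs of these steps that are absent from the table were not analysed here.

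**Figure D5:**
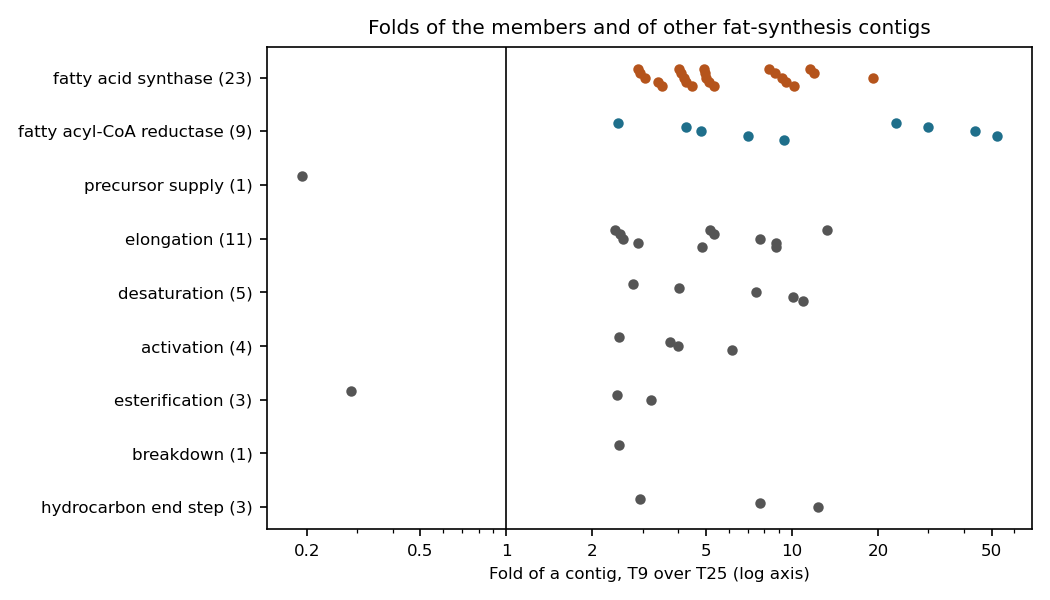
Fold of T9 over T25 of single contigs (horizontal log axis) for both families, in orange and blue, and for the other lists of fat metabolism, among them breakdown, in grey, with the number of contigs of each list in parentheses. Contigs to the left of 1 are found in the lists of precursor supply and esterification, 1 in each. With the median ratio of the table as scale, 20 of the 28 grey contigs and 31 of the 32 members lie to the right, beside 50% of all contigs of the table.

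Markers of the tissues in a whole body were also found in the table, of which 54.7% of all contigs were higher in T9. Cytochrome P450 4g15 was taken here as the marker of oenocytes and of the last step of hydrocarbon synthesis. It was higher in T9 in 3 of 3 contigs, with 137768 counts in T9 and 12975 in T25, 9.83-fold (9.65 to 10.005) for the sum. Its contig c39730_g1_i1 had 79263 counts in T9 and 5932 in T25, 12.4-fold (12.0 to 12.7), and c89628_g4_i1 had 58448 in T9 and 7025 in T25, 7.70-fold (7.51 to 7.89). The NT match of the remaining contig, c90445_g3_i1, was an uncharacterized noncoding RNA. The name 4g15 is that of the best match and does not give the cells in which the ant genes act. Of 6 fat body contigs 4 were higher and 2 lower, with 218993 counts in T9 and 73210 in T25, and of 27 midgut contigs 20 were higher and 7 lower, with 242806 counts in T9 and 9860 in T25. Muscle markers were higher in 3 and lower in 3 of 6 contigs, with 48566 counts in T9 and 94659 in T25. Eye markers were lower in 2 of 2 contigs, with 12 counts in T9 and 76 in T25, and odorant receptors in 42 of 43, with 1039 in T9 and 5474 in T25. The fat body sum was 2.77-fold (2.74 to 2.79) higher in T9. With the median ratio of the table as scale, log2 ratios moved by -1.46, so the marker counts and sums depend on the scaling too. The part of these tissues in the values of the synthases and reductases was not tested. The authors left out contigs that either library counted at 0, so markers at 0 were not analysed here.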

How the data were processed

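RNA-seq of whole S. japonica workers was analysed from 1 table of 4487 contigs with 23 columns. Read quality was checked by the authors with FastQC 0.11.7 and adapters were removed with Trimmomatic 0.38. The reads of the libraries were merged for a Trinity assembly, which was reduced with CD-HIT. Alignment was done with Bowtie 1.1.2, and the deposited count of each contig, a whole number without normalization, was estimated with RSEM. Contigs with a count of 0 are missing from the table. The deposited FPKM values of the authors correct the fragment number for contig length and depth. The deposited log2 values, log2(CPM + 1), carry the authors' normalization (relative log expression in DESeq2 by their methods), and the columns headed as means repeat them. The columns of the authors' own comparison hold a fold change, an average level and p-values, and were not used.

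The counts of the table summed to 7176142 in T9 and 11259918 in T25. The tools were Python 3.11.15, scipy 1.17.1, numpy 2.4.6, pandas 2.3.3 and, for plots, matplotlib 3.10.9, and the calculations were tested on simulated data. A pseudocount of 1 scaled count was used for log2 ratios. No test was made, since each temperature has 1 library. The members and lists were chosen with earlier results of these data known. The text names every gene of both families, its largest contig, each member with at least 100 counts, any member lower in T9, and the 2 contigs with the largest total of each further pathway list. Other contigs were named after their values had been seen. No sequences of the contigs were used here. Alternatives covered the scaling, the pseudocount, low counts, the database and the grouping of contigs.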

Additional observations from a re-analysis of the deposited data

How the results depend on the processing

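The direction of the summed families was the same under the 3 other scalings tried, and c90634_g2_i1 alone among the members turned, to 0.893 with the median ratio of the table. With the ratio of the deposited FPKM columns, the folds of member contigs moved by 0.10 to 0.17 on the log2 scale (median 0.13) and the ratios of summed FPKM, which then weigh contigs by level per length, were 4.89 for the synthases and 10.0 for the reductases. With the sums of the table set equal in both libraries, log2 ratios before the pseudocount moved by 0.76 and the summed folds were 8.10 and 14.0. A single contig, c68678_g1_i1, weighs most in that scale. It held 8778590 of the 11259918 T25 counts of the table and was at 178194 CPM in T25 and 35321 in T9. With the median ratio of the table as scale, ratios moved by -1.46, the summed folds were 1.74 and 3.004, the median log2 ratio was 0.85, and 7 of the 32 contigs were at least 4-fold higher, against 8.54% of the table. That scale sets the middle of a table of contigs filtered by difference to no difference. With contigs of at least 100 counts, 17 contigs were at least 4-fold higher. Without the contig with the largest total, the summed folds were 4.70 and 5.66. Without LOC105839757 the synthases were at 3.82, and without LOC105200177 the reductases were at 4.79, both choices made after the data were seen. Of 55 folds of single contigs and genes, 46 stayed within their counting interval with FPKM ratios, 9 did not, and 0 turned. Grouped by Trinity component, 20 of 20 units were higher in T9, and 24 of 24 contigs chosen by NR and 31 of 31 chosen by NT were higher. No paired analysis was possible because each temperature has 1 library and no test was made. No library could be left out for the same reason. Folds of contigs with few counts in T25 are limited by depth.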
